A study of Mus musculus with 18 samples.

Results

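The comparison set 6 libraries of ileal epithelium from pseudopregnant mice against 6 from virgin mice, 12 of the 18 libraries in the series, chosen by their titles and mating status. All mice were female, were on RM1 chow during the experiment after RM3 chow for breeding, and gave epithelial cells sorted from the ileum by flow cytometry. The other 6 libraries came from pregnant mice and entered the shared estimate of the spread and a single contrast at the end. Strain, age, day after mating, the way pseudopregnancy was brought about, collection hour, sorting markers and batch are not in the labels. Nor do they say that replicates are separate animals, so p-values measure only the spread between these samples. The series title places the samples in a study of how the maternal gut grows in reproduction, and this comparison asked which transcripts differ in a luteal state with no embryo.

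Pseudopregnancy follows a sterile mating or an equivalent stimulus of the cervix. Prolactin surges then keep the corpora lutea secreting progesterone, as in early pregnancy, while fetus and placenta are absent. Prolactin signals through its receptor, the kinase JAK2 and the transcription factor STAT5, and progesterone through a nuclear receptor. The ileal epithelium renews from stem cells in the crypts, takes up nutrients, bile acids and minerals through its enterocytes, and holds goblet, Paneth, enteroendocrine and tuft cells.

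No transcript passed the test between the groups. Of 14675 genes tested, 0 (0%) had an adjusted p under 0.05 (edgeR quasi-likelihood test, Benjamini-Hochberg adjustment, smallest adjusted p 0.515). DESeq2 and limma-voom also gave 0. At an unadjusted p under 0.05 stood 1375 genes with edgeR (9.37%), 1504 with DESeq2 and 1107 with limma-voom. In pseudopregnant libraries 1080 of the 1375 (7.36% of all) were higher and 295 (2.01%) lower, while 50.6% of all genes had a fold change above 0 and 49.4% below. Each of the 1375 had the same adjusted p of 0.515 in edgeR's quasi-likelihood test. Fold changes below are therefore measured differences that did not pass the test, given as log2 pseudopregnant minus virgin with a standard error (SE), whose median over all genes was 0.202. In simulated counts with the means and depths of these libraries, the same test recovered 14 of 50 genes changed 1.5-fold, 31 of 50 changed 2-fold and 49 of 50 changed 4-fold. Another 50 were changed 8-fold, and each gene was drawn independently. Variation that genes of a library share was thus left out, and recovery in the measured libraries may be lower. Libraries held 28.1 to 32.5 M (mega) counts in the virgin group and 28.5 to 32.5 M in the pseudopregnant group. Levels are CPM, counts set against the library total over the tested genes after TMM scaling.

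The differences followed transcript length, taken as the bases that the annotated exons of a gene cover together. Among 9974 genes with a mean of at least 5 CPM and a known length, 12.5% of the shortest quintile (56 to 2160 bases) and 85.1% of the longest quintile (7480 to 123179 bases) had a positive fold change. Their medians were -0.25 and 0.27, and the quintiles between stood in order. In the longest quintile 27.9% were higher at an unadjusted p under 0.05 and 0.451% lower, against 0.702% and 2.96% in the shortest. Across genes, which are not independent replicates, Spearman's correlation between length and fold change was 0.63. The length slope of a library, the slope of its log2 CPM deviations on log2 length over 6353 genes, stood at -0.154, -0.25, 0.078, -0.053, -0.0056 and -0.063 in virgin replicates 1 to 6. In pseudopregnant replicates 1 to 6 it was -0.168, 0.193, 0.017, 0.205, 0.263 and -0.071. Pseudopregnant replicates 2, 4 and 5 lay above every virgin library, while replicates 1, 3 and 6 lay inside the virgin range. The mean difference of 0.148 had an exact two-sided permutation p of 0.104 over the 6 and 6 libraries, where 0.0022 was the smallest possible. With each library left out it ran from 0.11 without pseudopregnant replicate 5 (exact permutation p = 0.219) to 0.197 without pseudopregnant replicate 1 (exact permutation p = 0.0368), and the latter was the single one of the 12 with p under 0.05. With the slope as a covariate, the count at an unadjusted p under 0.05 was 312 in place of 1375 (162 higher, 150 lower), and 0 passed adjustment. What set the slope of a library was not tested. The slope was computed from the same counts, so smaller fold changes of long and short genes with it are partly built in. The covariate would also absorb any group difference that follows length.

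**Figure D1:**
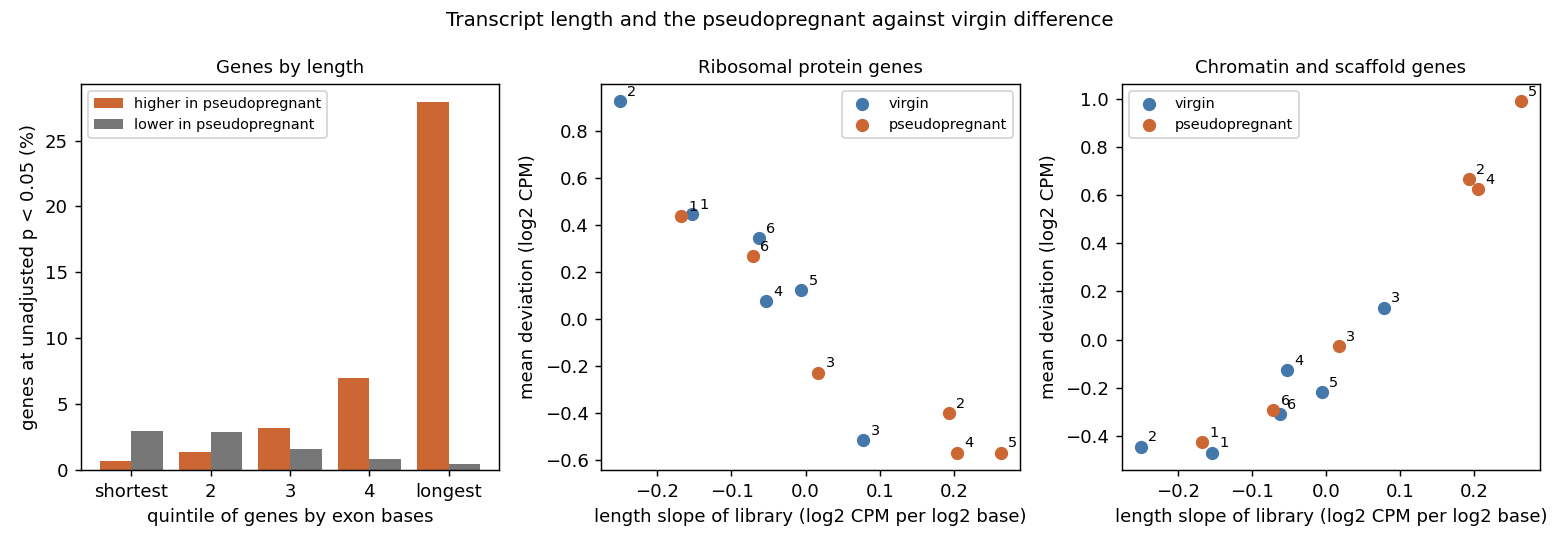
The left panel gives the percentage of genes at an unadjusted p under 0.05 that were higher or lower in pseudopregnant libraries, by quintile of exon bases, and the longest quintile reaches 27.9% higher. The other panels plot, for each library (numbers are replicates), the mean log2 CPM deviation of ribosomal protein genes and of chromatin and scaffold genes against the length slope, with pseudopregnant replicates 2, 4 and 5 at the right.

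Several gene groups with extreme lengths showed the pattern. Transcripts of the mitochondrial genome did not, with a median length of 784 bases and a positive median fold change of 0.22. All 27 tested genes of the chromatin and transcription scaffold list had a positive fold change (median 0.61, against 0.0045 over all genes), 23 of them at an unadjusted p under 0.05 (from 4 without pseudopregnant replicate 5 to 24 without pseudopregnant replicate 6 over the fits that leave out 1 library). Their median length was 14838 bases. The ubiquitin ligase Huwe1 stood at 28.5 to 57.3 CPM (median 42.9) in virgin and 25.1 to 175 CPM (median 87.1) in pseudopregnant libraries, with 5 of 6 pseudopregnant libraries above the virgin median and overlapping groups (1.11, SE 0.38). With the length slope as a covariate Huwe1 was at 0.14 and the list median at 0.11, with 0 members at an unadjusted p under 0.05. Cytoplasmic ribosomal protein genes are short. All 72 tested had a negative fold change (median -0.42) with 0 at an unadjusted p under 0.05, and the median was 0.035 with the covariate. That 0 hung on single libraries, since leaving out virgin replicate 3 gave 39 lower genes, pseudopregnant replicate 1 gave 41 and pseudopregnant replicate 6 gave 4, while 24 were lower with the replicate number as a block. Nuclear genes of oxidative phosphorylation gave 43 of 46 negative (median -0.31, and 0.031 with it). Of these 0 were lower at an unadjusted p under 0.05, against 19 without pseudopregnant replicate 1, 2 without pseudopregnant replicate 6 and 6 with the block. Genes of growth factor signalling and mTOR, the growth regulating kinase, gave 19 of 24 positive with 6 higher and 1 lower (higher from 1 without pseudopregnant replicate 5 to 11 without virgin replicate 3, median 0.32, and 0.035 with the covariate). Among these the receptor tyrosine kinase Erbb3 stood at 136 to 333 CPM (median 231) in virgin and 237 to 458 CPM (median 399) in pseudopregnant libraries, overlapping (0.67, SE 0.23, 0.26 with the covariate). A fold change with this covariate is termed length-adjusted below.

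**Figure D2:**
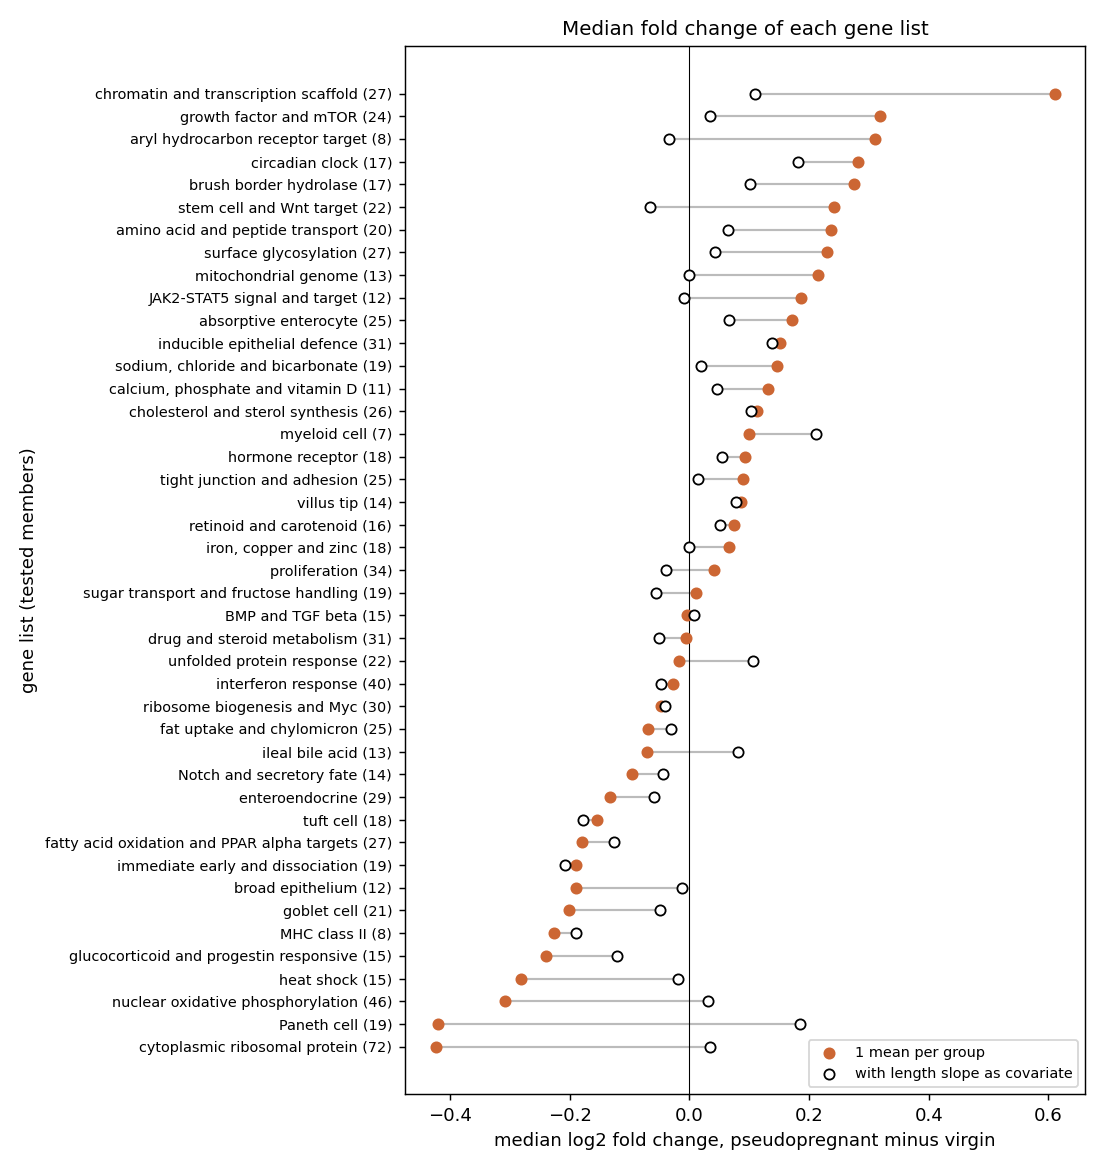
Median log2 fold change, pseudopregnant minus virgin, of each gene list with at least 7 tested members (their number in parentheses). Filled points are the fit with 1 mean per group and open points the fit with the length slope as a covariate: chromatin genes sit at 0.61 and 0.11, ribosomal protein genes at -0.42 and 0.035.

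Of 18 tested hormone receptors, 12 had a positive fold change (median 0.093), and 5 were higher and 0 lower at an unadjusted p under 0.05 (27.8% higher, against 7.36% of all genes). The 5 became 0 with the length covariate, in a list of long genes (median 6062 bases). Leaving out virgin replicate 1 alone gave 0, virgin replicate 2 and pseudopregnant replicates 2 and 5 gave 1, virgin replicate 5 gave 2 and virgin replicates 4 and 6 gave 3. The prolactin receptor Prlr (chr15:10177238-10349180, + strand) stood at 113 to 169 CPM (median 133) in virgin and 134 to 185 CPM (median 172) in pseudopregnant libraries. All 6 pseudopregnant libraries lay above the virgin median, while the ranges of the groups overlapped (0.31, SE 0.12, 0.23 with the length covariate). The progesterone receptor Pgr was hardly detected, at no more than 0.59 CPM in any of the 12 libraries, as was the estrogen receptor Esr1 at no more than 0.675 CPM (0.0084, SE 0.53 and -0.065, SE 0.46). The glucocorticoid receptor Nr3c1 stood at 96.2 to 162 CPM (median 121) in virgin and 119 to 201 CPM (median 161) in pseudopregnant libraries, overlapping, with virgin replicates 1 and 2 lowest and pseudopregnant replicates 2 and 5 highest (0.37, SE 0.15, 0.096 with the covariate). The mineralocorticoid receptor Nr3c2 was at 21.5 to 33.00 CPM (median 26.6) in virgin and 24.8 to 41.3 CPM (median 38.2) in pseudopregnant libraries (0.38, SE 0.18, 0.076 length-adjusted). Its pseudopregnant libraries split, with replicates 2 to 5 above every virgin library and replicates 1 and 6 among them. The thyroid hormone receptor Thrb (0.37, SE 0.18) and the insulin receptor Insr (0.49, SE 0.21, 0.32 without pseudopregnant replicate 5, 0.080 length-adjusted) complete the higher ones.

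Downstream of the prolactin receptor, the common STAT5 readouts Cish and Socs2 had small negative fold changes. Cish, a feedback inhibitor of cytokine receptors, was at 12.2 to 19.5 CPM (median 16.7) in virgin and 11.6 to 19.2 CPM (median 15.9) in pseudopregnant libraries (-0.069, SE 0.19). Its relative Socs2 was at 61.1 to 122 CPM (median 89.9) in virgin and 62.2 to 87.8 CPM (median 77.8) in pseudopregnant libraries (-0.24, SE 0.16, -0.067 length-adjusted), with 6 of 6 pseudopregnant libraries below the virgin median. Jak2 (0.24, SE 0.17), Stat5a (0.28, SE 0.23) and Stat5b (0.16, SE 0.11) had positive fold changes. In the list of JAK2-STAT5 signal and target genes the median was 0.19 (-0.0086 with the length covariate). At an unadjusted p under 0.05, 2 of 12 were higher and 0 lower (0 higher with the covariate, 0 to 3 with 1 library left out). They were the transcriptional repressor Bcl6, at 2.43 to 6.97 CPM (median 4.53) in virgin and 5.28 to 13.6 CPM (median 6.44) in pseudopregnant libraries (0.84, SE 0.37), and the cytokine inhibitor Socs3, at 16.8 to 43.4 CPM (median 28.8) in virgin and 21.3 to 136 CPM (median 33.9) in pseudopregnant libraries (0.82, SE 0.38). Socs3 was highest in pseudopregnant replicate 4 and stood at 0.21 without that library. Socs3 also reads out STAT3. The count takes no account of whether STAT5 raises or lowers a target, so it does not measure STAT5 activity.

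All 17 tested genes of the circadian clock had a positive fold change (median 0.28), 4 at an unadjusted p under 0.05 (23.5% higher, against 7.36% of all genes). With the length covariate 13 of 17 were positive, with a median of 0.18 and 0 at that p. The 4 became 2 without virgin replicate 1 or 5 or pseudopregnant replicate 2 or 5. Per3, a clock repressor, gave 1.01, 2.13, 1.59, 2.19, 1.28 and 1.23 CPM in virgin replicates 1 to 6 and 2.07, 2.93, 3.74, 1.97, 4.13 and 2.56 CPM in pseudopregnant replicates. The groups overlapped only between virgin replicates 2 and 4 and pseudopregnant replicates 1 and 4 (0.89, SE 0.32, 0.60 with the covariate). The activator Clock stood at 36.3 to 52.96 CPM (median 39.7) in virgin and 39.4 to 71.1 CPM (median 57.7) in pseudopregnant libraries (0.42, SE 0.16, 0.12 length-adjusted), overlapping. Tef, a transcription factor driven by the clock, was at 11.7 to 16.2 CPM (median 12.6) in virgin and 9.09 to 31.5 CPM (median 18.6) in pseudopregnant libraries (0.49, SE 0.23, 0.29 without pseudopregnant replicate 3, 0.50 length-adjusted), with the single lowest and the highest value both pseudopregnant. The nuclear receptor Rora was at 0.66, SE 0.29 and the clock output gene Dbp at 0.65, SE 0.44, while Per1 stood at 0.0020.

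**Figure D3:**
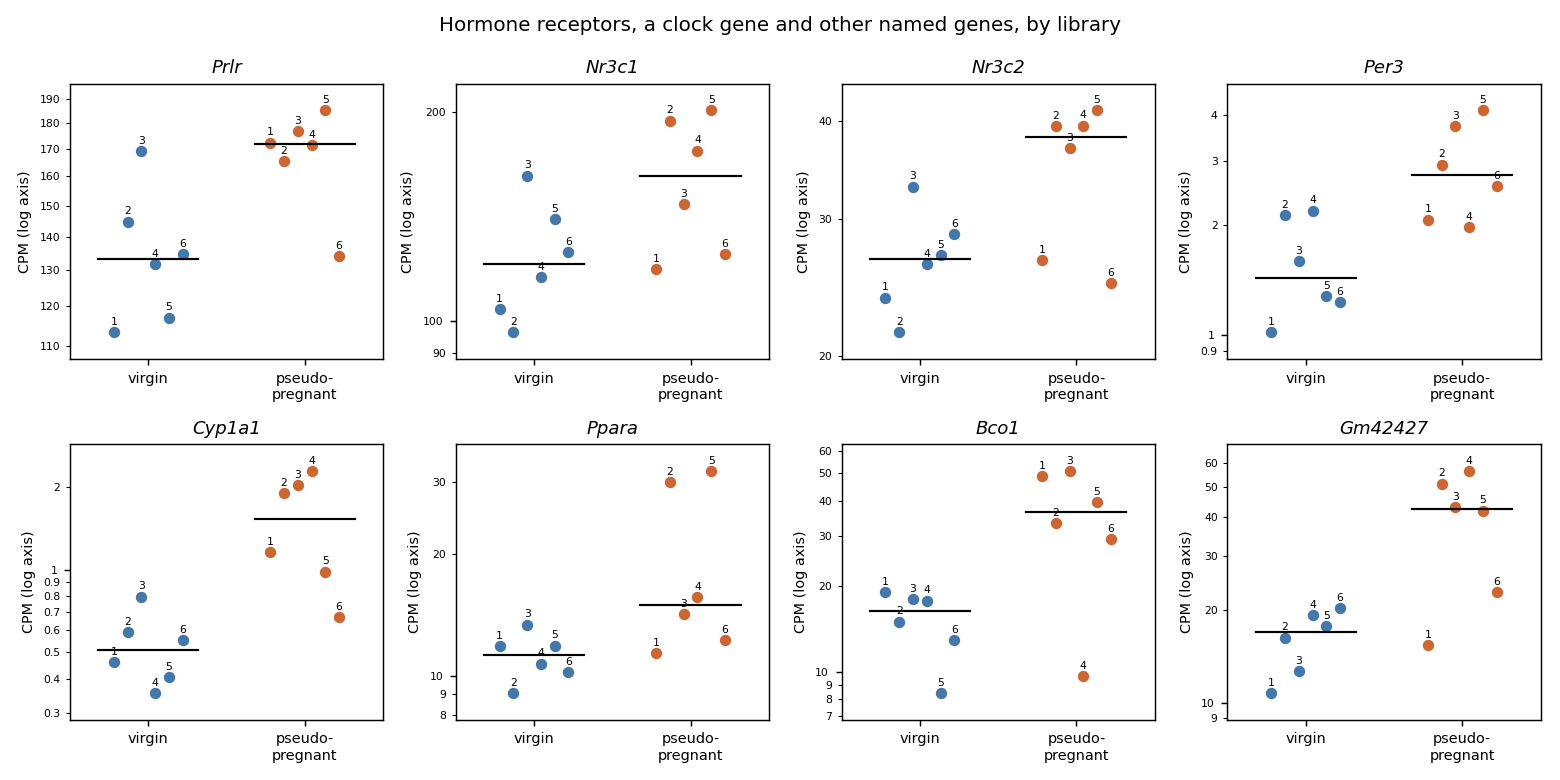
TMM-scaled CPM on log axes for 8 genes in each virgin and pseudopregnant library (numbers are replicates, lines are medians). Pseudopregnant replicates 2 and 5 are the high points of Ppara at 30.00 and 31.96 CPM, and replicate 4 is the lowest pseudopregnant library for Bco1 at 9.64 CPM.

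In 10 genes (0.0681% of those tested) the 6 libraries of each group did not overlap, 5 lower and 5 higher in pseudopregnant libraries. For a single gene, random labels on the 6 and 6 libraries would separate the groups with probability 0.0022. The share found was smaller, so these genes are given as a description. Acot1, which cleaves acyl-CoA in the cytosol (chr12:84009490-84018371, + strand), gave 4.89, 3.44, 5.44, 11.6, 5.82 and 3.39 CPM in virgin replicates 1 to 6 and 2.72, 3.24, 2.25, 1.51, 2.16 and 2.96 CPM in pseudopregnant replicates. Virgin replicate 4 stood far above the rest, and without it the fold change was -0.90 in place of -1.22 (SE 0.32). Tcf23, a helix-loop-helix factor that lacks a DNA binding region of its own (chr5:30968662-30977018, + strand), gave 4.49, 3.20, 5.34, 3.96, 3.77 and 3.48 CPM in virgin and 2.14, 2.39, 2.54, 1.13, 1.60 and 2.93 CPM in pseudopregnant replicates (-0.93, SE 0.22, -0.90 with the length covariate). Pseudopregnant replicates 4 and 5 were the lowest. Mbip, a kinase binding protein of a histone acetyltransferase complex (chr12:56328303-56345894, - strand), was tight in virgin libraries at 6.80 to 7.42 CPM (median 7.30) and stood at 4.64 to 6.26 CPM (median 5.48) in pseudopregnant ones (-0.39, SE 0.12). The metallo-beta-lactamase domain gene Mblac1 (-0.64, SE 0.18) and the palmitoyltransferase Zdhhc4 (-0.18, SE 0.09) complete the lower genes.

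Of the genes higher without overlap, Dapp1, an adaptor that binds phosphoinositides (chr3:137931007-137981545, - strand), stood at 20.1 to 25.1 CPM (median 22.9) in virgin and 25.2 to 36.8 CPM (median 26.99) in pseudopregnant libraries (0.32, SE 0.11). Pseudopregnant replicate 3 was the highest, and replicate 1 stood next to virgin replicate 3. The endolysosomal potassium channel Tmem175 was at 8.26 to 11.1 CPM (median 10.6) in virgin and 11.4 to 13.8 CPM (median 12.6) in pseudopregnant libraries (0.30, SE 0.12, 0.16 length-adjusted). Brip1os, transcribed antisense to Brip1, was at 47.4 to 65.5 CPM (median 61.6) in virgin and 66.3 to 80.2 CPM (median 72.04) in pseudopregnant libraries (0.28, SE 0.11, 0.17 length-adjusted). The strand setting of the counting was not given in the sources used here, nor was the annotation release, and antisense, overlapping or near-identical genes may share reads. The other two, named after their values were seen, were the cadherin Celsr3, at 0.261 to 0.43 CPM (median 0.384) in virgin and 0.436 to 5.10 CPM (median 0.667) in pseudopregnant libraries, and the small nuclear RNA gene Gm23296. None of the 10 had a smaller adjusted p than 0.515 in edgeR's quasi-likelihood test.

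**Figure D4:**
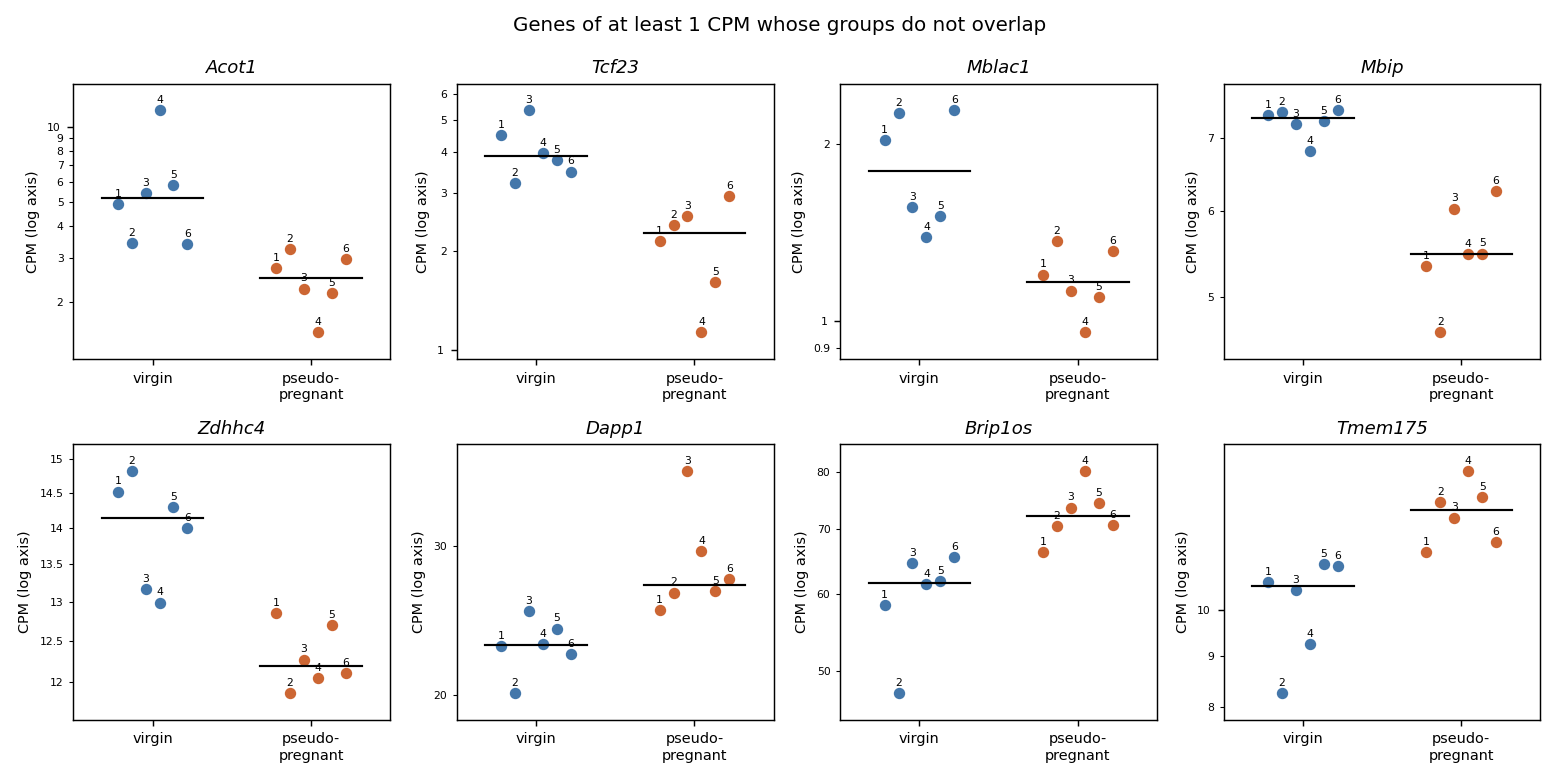
TMM-scaled CPM on log axes for the 8 genes of at least 1 CPM whose groups do not overlap, by library (numbers are replicates, lines are medians). Acot1 in virgin replicate 4 (11.6 CPM) lies far above the other virgin libraries. The groups nearly touch in several panels, as for Dapp1 (virgin highest 25.1, pseudopregnant lowest 25.2 CPM) and Mblac1 (virgin lowest 1.39, pseudopregnant highest 1.37 CPM).

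Among well expressed genes of smallest unadjusted p, several higher ones were long. Akap13, a scaffold of protein kinase A, stood at 30.9 to 45.2 CPM (median 34.6) in virgin and 41.2 to 109 CPM (median 57.8) in pseudopregnant libraries (0.92, SE 0.22, 0.55 with the length covariate). The phosphodiesterase Pde4d (0.70, SE 0.19, 0.35 length-adjusted), the cofilin phosphatase Ssh2 (0.41, SE 0.11, 0.34 length-adjusted), the chromatin remodeller Chd2 (0.60, SE 0.17, 0.35 length-adjusted), Fryl (0.83, SE 0.23, 0.35 length-adjusted) and the hepatocyte growth factor receptor Met (0.58, SE 0.17, 0.28 length-adjusted) were of the same kind. Eef2k, the kinase that slows translation elongation, showed little spread, at 27.7 to 33.9 CPM (median 29.1) in virgin and 32.8 to 41.1 CPM (median 36.6) in pseudopregnant libraries (0.31, SE 0.09, 0.26 length-adjusted). The GDP-glucose phosphorylase Gdpgp1 (0.56, SE 0.16, 0.32 length-adjusted) and the transporter Mfsd4a (0.51, SE 0.14, 0.39 length-adjusted) were also among them. Gm42427, a locus with no assigned transcript type (chr5:44137980-44143271, + strand), gave 10.8, 16.3, 12.7, 19.3, 17.8 and 20.4 CPM in virgin and 15.4, 51.3, 42.95, 56.3, 41.99 and 22.9 CPM in pseudopregnant replicates. Pseudopregnant replicates 2 to 6 lay above every virgin library and replicate 1 lay among them (1.25, SE 0.27, 0.79 with the covariate). On the lower side were the RNA-DNA hybrid nuclease Rnaseh1 (-0.42, SE 0.12), the phosphomannomutase Pmm1 (-0.67, SE 0.20, -0.43 length-adjusted), the hydroxylase Jmjd6 (-0.38, SE 0.12, -0.23 length-adjusted), the asparaginase Aspg (-0.37, SE 0.12), Smim3 (-0.66, SE 0.22, -0.41 length-adjusted), the protease Tysnd1 (-0.31, SE 0.11, -0.20 length-adjusted) and the Mediator subunit Med7 (-0.51, SE 0.18, -0.22 length-adjusted).

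Bco1 cleaves dietary beta-carotene to retinal, the first step from carotenoid to vitamin A (chr8:117095854-117133720, + strand). It gave 19.00, 15.01, 17.96, 17.8, 8.40 and 12.9 CPM in virgin and 48.8, 33.4, 50.9, 9.64, 39.6 and 29.3 CPM in pseudopregnant replicates. Of the pseudopregnant libraries 5 lay above every virgin library, and replicate 4 lay among the lowest virgin ones (1.22, SE 0.35, 1.21 with the length covariate). Without replicate 4 the fold change was 1.41. Its repressor Isx was at 80.99 to 121 CPM (median 97.5) in virgin and 105 to 117 CPM (median 111) in pseudopregnant libraries (0.16, SE 0.10), and of the 16 tested retinoid and carotenoid genes 1 was higher and 0 lower at an unadjusted p under 0.05 (median 0.075).

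Cyp1a1 is the xenobiotic oxidase induced by the aryl hydrocarbon receptor, a sensor of ligands from diet and microbes. It gave 0.461, 0.593, 0.797, 0.355, 0.406 and 0.555 CPM in virgin and 1.16, 1.91, 2.03, 2.29, 0.984 and 0.673 CPM in pseudopregnant replicates. All pseudopregnant libraries but replicate 6 lay above every virgin library (1.52, SE 0.36, 1.41 with the length covariate, 1.36 to 1.67 with any single library left out). Its promoter is shown because the receptor binds DNA at the core GCGTG, put in capitals below. It is the RefSeq window of 300 bases (250 before to 50 after the start, GRCm38.p6, chr9:57697363-57697662, + strand).
Cyp1a1: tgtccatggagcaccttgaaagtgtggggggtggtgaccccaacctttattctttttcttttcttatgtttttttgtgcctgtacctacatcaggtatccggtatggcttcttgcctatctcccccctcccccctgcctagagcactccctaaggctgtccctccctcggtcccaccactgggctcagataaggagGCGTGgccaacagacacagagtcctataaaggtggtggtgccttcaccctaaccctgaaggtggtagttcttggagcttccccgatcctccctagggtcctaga
With both strands searched, the window holds 1 match, beginning 54 bases before the start, as do 32.4% of 32851 promoter windows of that length, so the match is a description. The receptor Ahr (0.32, SE 0.18), its partner Arnt (0.34, SE 0.18) and the target Tiparp (0.30, SE 0.18) had positive fold changes, and the target Nqo1 stood at -0.15, SE 0.15. Of the 8 tested genes of that list 1 was higher and 0 lower at an unadjusted p under 0.05 (median 0.31, -0.033 with the covariate, 0.13 without virgin replicate 2).

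Most genes of fatty acid oxidation had negative fold changes, while that of their regulator was positive. Ppara, the nuclear receptor that drives them, gave 11.8, 9.05, 13.3, 10.7, 11.9 and 10.2 CPM in virgin and 11.4, 30.00, 14.2, 15.6, 31.96 and 12.2 CPM in pseudopregnant replicates. Replicates 2 and 5 stood far above, and replicates 1 and 6 lay within the virgin range (0.79, SE 0.25, 0.31 with the length covariate). In the list of 27 tested genes 5 were lower and 1 higher at an unadjusted p under 0.05, 21 had a negative fold change against 49.4% of all genes, and the median was -0.18 (-0.13 with the covariate). The 5 became 3 with the covariate, and ran from 3 to 9 without pseudopregnant replicate 1, leaving out 1 library at a time. Acot2, the mitochondrial paralog with which Acot1 may share reads, stood at 5.73 to 12.8 CPM (median 7.31) in virgin and 3.53 to 6.40 CPM (median 5.29) in pseudopregnant libraries (-0.62, SE 0.21, -0.42 without virgin replicate 4). The thiolase Acaa2 (-0.36, SE 0.15) and the enoyl-CoA isomerase Eci2 (-0.23, SE 0.11) were also lower at that p. Pdk4, which shuts off pyruvate oxidation, was at -0.93, SE 0.49, and the lipase inhibitor Angptl4 at -0.57, SE 0.29. Of the 27, Acot1 alone had groups that did not overlap.

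Genes that glucocorticoids and progestins induce leaned lower, with 11 of 15 negative (median -0.24, -0.12 with the length covariate) and 3 lower against 0 higher at an unadjusted p under 0.05. Of all genes 49.4% were negative and 2.01% lower. With the covariate 0 of the list were lower, and 1 was without virgin replicate 4 or 6 or pseudopregnant replicate 3, 4 or 5, each left out alone. The metallothionein Mt1, which binds zinc and copper and also answers to metals, gave 80.7, 265, 224, 215, 187 and 208 CPM in virgin and 160.3, 141, 92.3, 41.3, 48.8 and 52.1 CPM in pseudopregnant replicates. Virgin replicate 1 lay low among the pseudopregnant libraries, of which replicates 4, 5 and 6 were lowest (-1.14, SE 0.41). Its neighbour Mt2 was at 16.6 to 141 CPM (median 118) in virgin and 10.9 to 109.5 CPM (median 28.2) in pseudopregnant libraries (-1.31, SE 0.58). The kinase Sgk1 was at 160.3 to 442 CPM (median 394) in virgin and 100.1 to 338 CPM (median 254) in pseudopregnant libraries (-0.51, SE 0.24). The co-chaperone Fkbp5, a common readout of glucocorticoid receptor activity, was at 6.59 to 50.99 CPM (median 19.1) in virgin and 9.98 to 17.7 CPM (median 15.2) in pseudopregnant libraries (-0.66, SE 0.34), and at -0.26 without virgin replicate 6. Hsd11b2, which inactivates corticosterone, was at -0.43, SE 0.26, with 0 of 6 pseudopregnant libraries above the virgin median for each of Mt1, Mt2, Sgk1, Fkbp5 and Hsd11b2.

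Immediate early genes, which also mark cell dissociation, gave 18 of 19 negative (median -0.19, -0.21 with the length covariate), 4 lower and 1 higher at an unadjusted p under 0.05, 21.1% lower against 2.01% of all genes (5 lower with the covariate, and from 1 without virgin replicate 2 to 5, leaving out 1 library at a time). The transcription factor Klf2 gave 23.2, 40.4, 13.5, 23.01, 17.1 and 16.9 CPM in virgin and 16.7, 11.98, 15.5, 11.6, 11.7 and 13.8 CPM in pseudopregnant replicates. Virgin replicate 2 stood highest and virgin replicate 3 lay among the pseudopregnant libraries (-0.72, SE 0.21, -0.39 length-adjusted, -0.48 without virgin replicate 2). Ier2 (-0.50, SE 0.20, -0.16 length-adjusted, -0.32 without virgin replicate 2), Fosl1 (-0.71, SE 0.33) and Nr4a1 (-0.50, SE 0.23) were the others, and Socs3 the single higher one. Phlda1, an early gene of growth factor signalling, stood at 23.4 to 72.1 CPM (median 27.5) in virgin and 11.9 to 24.6 CPM (median 14.9) in pseudopregnant libraries (-1.002, SE 0.32, -0.67 without virgin replicate 2), and the EGF receptor ligand Areg at 24.8 to 47.8 CPM (median 25.8) in virgin and 14.3 to 28.4 CPM (median 17.8) in pseudopregnant libraries (-0.60, SE 0.22). Both were highest in virgin replicate 2. Heat shock genes gave 12 of 15 negative, 2 lower and 1 higher (median -0.28, -0.020 with the covariate, lower from 0 without virgin replicate 1 to 7 without virgin replicate 3, leaving out 1 library at a time), the lower ones being the chaperones Chordc1 (-0.35, SE 0.14, -0.22 length-adjusted) and Dnaja1 (-0.30, SE 0.13, -0.18 length-adjusted).

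Several antimicrobial, acute phase and fucosylation genes stood higher, most of all in pseudopregnant replicate 4. In the list of inducible epithelial defence 10 of 31 were higher and 0 lower at an unadjusted p under 0.05, with 21 positive (median 0.15). That is 32.3% higher, against 7.36% of all genes, and with the length covariate 7 were higher and 2 lower. Without replicate 4 it was 4 higher and 0 lower (median 0.046). B3galt5 builds type 1 glycan chains (chr16:96235801-96319859, + strand). It gave 1.41, 0.158, 0.381, 0.258, 1.25 and 0.73 CPM in virgin and 0.472, 0.825, 0.436, 77.2, 12.7 and 2.76 CPM in pseudopregnant replicates. Replicates 4, 5 and 6 lay above every virgin library and replicates 1, 2 and 3 among them (4.46, SE 1.11, 2.80 length-adjusted, 2.28 without replicate 4). Fut2, the fucosyltransferase whose products feed and bind gut microbes, gave 0.584, 0.395, 0.659, 0.838, 0.869 and 1.87 CPM in virgin and 1.85, 0.797, 0.617, 61.3, 2.30 and 1.28 CPM in pseudopregnant replicates. Replicate 4 alone was far out, and the fold change of 3.69 (SE 0.99) was 0.64 without it. Alpk1, the cytosolic kinase that senses bacterial ADP-heptose (chr3:127670310-127780527, - strand), gave 3.51, 5.37, 5.51, 4.42, 4.55 and 5.75 CPM in virgin and 5.66, 10.1, 7.12, 38.2, 20.9 and 7.60 CPM in pseudopregnant replicates. Here replicates 2, 3, 4, 5 and 6 were above every virgin library and replicate 1 was just below the highest (1.63, SE 0.39, 1.09 without replicate 4, 0.87 with the length covariate).

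These promoters are shown because Socs3, the readout of STAT3, was highest in the same library, and STAT factors bind the palindrome TTCNNNGAA, put in capitals. The windows are those of RefSeq on GRCm38.p6: B3galt5 chr16:96235551-96235850, + strand, Alpk1 chr3:127780478-127780777, - strand and Socs3 chr11:117969317-117969616, - strand.
B3galt5: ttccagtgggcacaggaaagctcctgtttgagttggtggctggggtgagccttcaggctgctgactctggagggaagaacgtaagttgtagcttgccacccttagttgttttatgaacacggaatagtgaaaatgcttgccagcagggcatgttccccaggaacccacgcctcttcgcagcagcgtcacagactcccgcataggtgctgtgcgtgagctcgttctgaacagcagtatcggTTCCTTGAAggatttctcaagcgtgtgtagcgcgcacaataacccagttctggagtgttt
Alpk1: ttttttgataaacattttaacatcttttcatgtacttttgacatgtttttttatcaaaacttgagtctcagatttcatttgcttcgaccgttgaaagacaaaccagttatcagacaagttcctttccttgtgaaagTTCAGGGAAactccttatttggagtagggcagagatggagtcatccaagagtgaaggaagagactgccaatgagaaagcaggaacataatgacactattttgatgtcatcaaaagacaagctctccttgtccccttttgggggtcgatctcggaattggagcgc
Socs3: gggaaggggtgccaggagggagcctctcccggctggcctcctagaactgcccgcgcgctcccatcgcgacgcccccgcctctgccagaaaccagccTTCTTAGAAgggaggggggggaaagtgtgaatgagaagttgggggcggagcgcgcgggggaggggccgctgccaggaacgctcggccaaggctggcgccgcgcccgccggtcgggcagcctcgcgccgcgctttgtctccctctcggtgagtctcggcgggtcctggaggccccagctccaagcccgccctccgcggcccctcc
The matches begin 10, 114 and 154 bases before the start. B3galt5 has 3 starts in the table, and the one nearest its annotated gene start was used. The motif is in 8.30% of all windows and in these 3 of the 6 searched, and those of Saa1, Chst4 and Slc6a14 hold 0. The 6 were searched because they were highest in replicate 4, and Socs3 itself prompted the search. Their share is therefore a description and no measure of enrichment. Fut2 had no window in the source and was not searched. A match is not a bound site, and no binding was measured.

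Secreted defence genes varied widely between libraries. Reg3g, a lectin that kills Gram-positive bacteria, stood at 1386 to 3075 CPM (median 1881) in virgin and 968 to 11147 CPM (median 2982) in pseudopregnant libraries, with pseudopregnant replicate 4 highest and pseudopregnant replicate 2 lowest of all (1.05, SE 0.44, 0.44 without replicate 4). Its relative Reg3b was at 2809 to 8754 CPM (median 4367) in virgin and 2269.6 to 20139.5 CPM (median 9959) in pseudopregnant libraries (1.03, SE 0.49). Saa1, an acute phase apolipoprotein, was at 1.48 to 10.7 CPM (median 3.15) in virgin and 0.854 to 243 CPM (median 9.46) in pseudopregnant libraries (3.41, SE 1.05), with the lowest and the highest value both pseudopregnant. Dmbt1, a mucin-like scavenger receptor, was at 287 to 624 CPM (median 426) in virgin and 314 to 4089 CPM (median 883) in pseudopregnant libraries (1.65, SE 0.48), and the hydrogen peroxide producing oxidase Duox2 at 57.5 to 169.8 CPM (median 103) in virgin and 99.9 to 657 CPM (median 124) in pseudopregnant libraries (1.13, SE 0.40). The protease inhibitor A2ml1 was at 0.116 to 0.645 CPM (median 0.296) in virgin and 0.598 to 2.52 CPM (median 0.733) in pseudopregnant libraries, with 5 of 6 pseudopregnant libraries close together (1.66, SE 0.42, 1.13 without replicate 4). Lypd8, which keeps flagellated bacteria off the epithelium, was at 1294 to 1654 CPM (median 1549.8) in virgin and 1606 to 2412 CPM (median 1829) in pseudopregnant libraries with 6 of 6 above the virgin median (0.32, SE 0.14). In surface glycosylation 5 of 27 genes were higher and 0 lower, 21 of them positive (median 0.23, 0.043 with the length covariate, 0.13 without replicate 4), where 7.36% of all genes were higher. The 5 became 0 with the length covariate, 2 without pseudopregnant replicate 4, 3 without replicate 5 and 8 without replicate 1. The sulfotransferase Chst4 was at 2.70 to 9.93 CPM (median 6.01) in virgin and 6.32 to 55.8 CPM (median 7.38) in pseudopregnant libraries (1.39, SE 0.47, 0.82 length-adjusted, 0.38 without replicate 4). Interferon response genes gave 19 of 40 positive with 0 at an unadjusted p under 0.05 (median -0.028, -0.23 without pseudopregnant replicate 1 to 0.21 without virgin replicate 3).

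**Figure D5:**
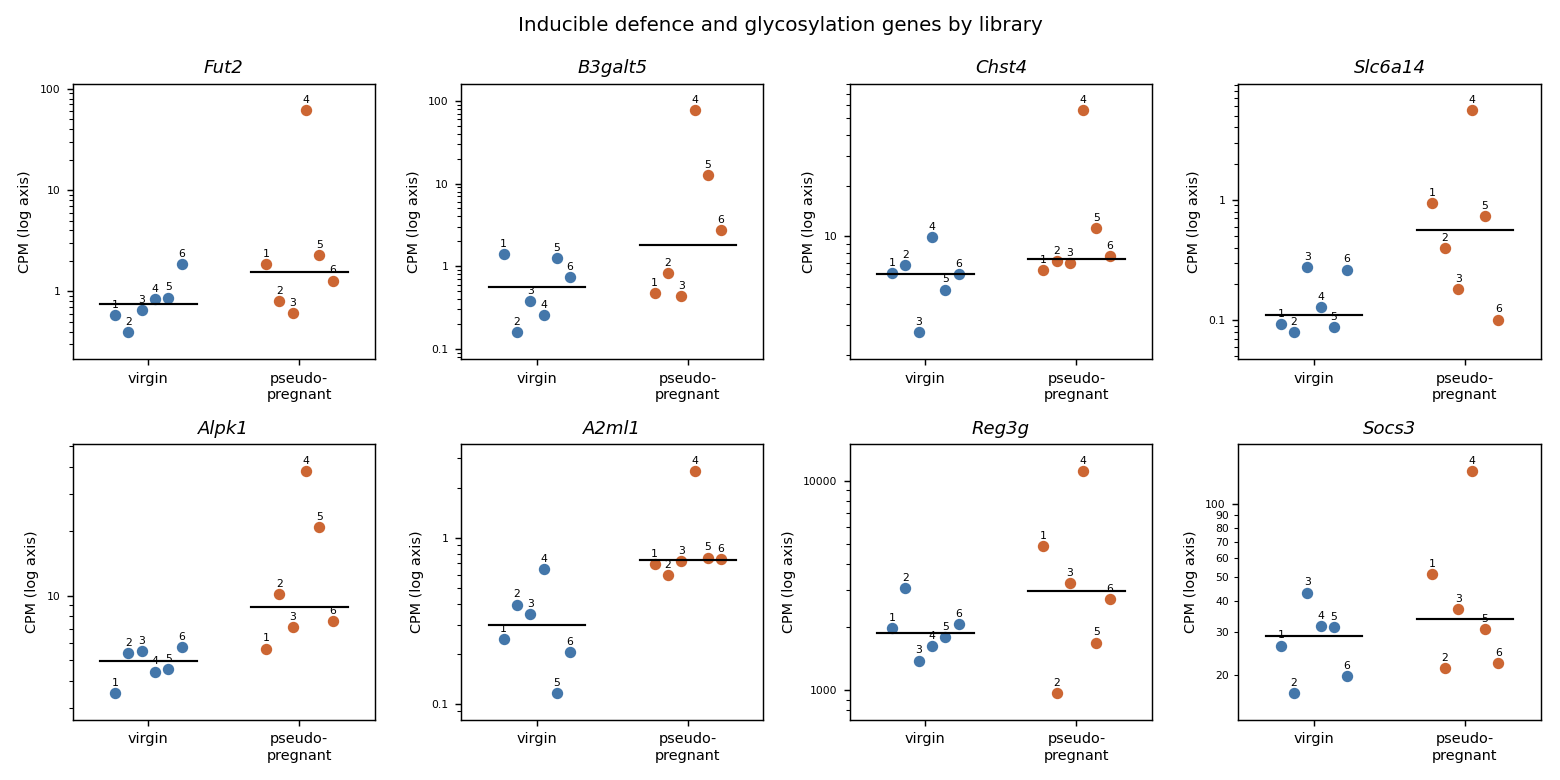
TMM-scaled CPM on log axes for 8 defence and glycosylation genes by library (numbers are replicates, lines are medians). Pseudopregnant replicate 4 is the highest of all 12 in every panel, for example at 61.3 CPM for Fut2 and 11147 CPM for Reg3g.

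Transport and digestion genes held few members at an unadjusted p under 0.05, which are the ones counted as higher or lower here. Of all genes 7.36% were higher, and each of these lists held at most 1 such member, apart from amino acid transporters with 3. With the length covariate the amino acid list held 1 higher member and each other list 0. Brush border hydrolases gave 16 of 17 positive (median 0.27, 0.10 with the length covariate, 0.16 without virgin replicate 2 to 0.39 without virgin replicate 3). In this list 1 was higher and 0 lower (0 higher without pseudopregnant replicate 2, 3, 4 or 5 or virgin replicate 2 or 6, 5 higher without virgin replicate 3). The single one was Mgam, which frees glucose from starch, at 730.0 to 2067 CPM (median 1256) in virgin and 1302 to 2537 CPM (median 2229) in pseudopregnant libraries (0.64, SE 0.27), and all 6 pseudopregnant libraries were above the virgin median. Dpp4, the peptidase that inactivates incretins, was at 301 to 685 CPM (median 436) in virgin and 482 to 752 CPM (median 645) in pseudopregnant libraries (0.46, SE 0.23). Amino acid and peptide transporters gave 18 of 20 positive (median 0.24, 0.065 with the length covariate, 0.15 without virgin replicate 2 to 0.40 without virgin replicate 3). Of the 20, 3 were higher and 0 lower (1 higher without pseudopregnant replicate 4 or virgin replicate 2, 7 higher without virgin replicate 3). They were Slc6a14, which takes up neutral and basic amino acids, at 0.079 to 0.277 CPM (median 0.111) in virgin and 0.101 to 5.56 CPM (median 0.565) in pseudopregnant libraries (3.08, SE 0.81, 1.58 without pseudopregnant replicate 4), the glutamine carrier Slc38a1 (0.60, SE 0.25, 0.12 length-adjusted) and Slc6a18 (1.15, SE 0.53, 0.61 without pseudopregnant replicate 4). Sugar transport and fructose handling gave 10 of 19 positive, 1 higher and 0 lower (median 0.012, -0.055 with the length covariate, -0.074 without virgin replicate 6 to 0.10 without pseudopregnant replicate 4), and the sodium-coupled sugar transporter family member Slc5a4a was at 37.6 to 129 CPM (median 54.5) in virgin and 36.8 to 147 CPM (median 70.7) in pseudopregnant libraries (0.32, SE 0.36, 0.060 to 0.63 with 1 library left out). Fat uptake and chylomicron genes gave 11 of 25 positive, 1 higher and 0 lower (median -0.070, -0.030 with the length covariate, -0.15 without pseudopregnant replicate 3 to 0.074 without virgin replicate 3), with Apob, the chylomicron coat protein, at 0.83, SE 0.38. In each gene named here the libraries of the groups overlapped. Cholesterol handling gave 17 of 26 positive, 1 higher and 0 lower (median 0.11, 0.10 with the length covariate, 5 higher without virgin replicate 3, 3 lower without pseudopregnant replicate 1), the higher gene being the sterol exporter Abca1 (0.63, SE 0.28). For ileal bile acid genes the count was 6 of 13 positive, 0 higher and 0 lower (median -0.070, 0.082 with the length covariate, -0.12 without pseudopregnant replicate 1 to 0.078 without virgin replicate 4). The bile acid carrier Fabp6 was at 2787 to 14268 CPM (median 4865) in virgin and 1729 to 10740.1 CPM (median 3001) in pseudopregnant libraries (-0.53, SE 0.49, 0.093 length-adjusted, -1.07 to -0.095 with 1 library left out), highest in virgin replicate 2, and the enterokine Fgf15 at 13.7 to 79.1 CPM (median 43.4) in virgin and 10.5 to 92.05 CPM (median 61.9) in pseudopregnant libraries (0.40, SE 0.50, 0.20 to 0.64 with 1 library left out).

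Ion and metal handling genes at an unadjusted p under 0.05, counted as above, were scattered over several functions. With the length covariate the sodium, chloride and bicarbonate list held 1 higher member and the other lists here 0, with 0 lower in any. Sodium, chloride and bicarbonate genes gave 15 of 19 positive, 2 higher and 0 lower (median 0.15, 0.019 with the length covariate, 5 higher without pseudopregnant replicate 1). Slc4a4, the basolateral sodium bicarbonate cotransporter, was at 76.2 to 121 CPM (median 94.8) in virgin and 108 to 184 CPM (median 140.1) in pseudopregnant libraries and each pseudopregnant library exceeded the virgin median (0.57, SE 0.18), and the guanylin receptor Gucy2c at 0.35, SE 0.17. For Slc4a4 the lowest pseudopregnant library lay within the virgin range. Iron, copper and zinc genes gave 10 of 18 positive, 3 higher and 2 lower (median 0.067, -6.2e-05 with the length covariate, -0.062 without virgin replicate 1 to 0.15 without pseudopregnant replicate 6). The 3 higher became 0 without pseudopregnant replicate 5 and 1 without pseudopregnant replicate 4 or virgin replicate 1. The 2 lower ran from 1 to 4 with 1 library left out. The iron exporter Slc40a1 was at 13.1 to 35.4 CPM (median 18.7) in virgin and 22.03 to 68.3 CPM (median 35.6) in pseudopregnant libraries (0.80, SE 0.36, 0.80 with the covariate), and the copper importer Slc31a1 at 172 to 327 CPM (median 243) in virgin and 293 to 404 CPM (median 357) in pseudopregnant libraries (0.50, SE 0.23). The copper exporter Atp7a stood at 1.60, SE 0.64 and at -0.016 with the covariate, while Mt1 and Mt2 were the lower members. Calcium, phosphate and vitamin D genes gave 9 of 11 positive, 2 higher and 0 lower (median 0.13, 0.047 with the length covariate), the higher ones being the phosphate exporter Xpr1 (0.48, SE 0.21) and Cldn12 (0.18, SE 0.09). The 2 became 0 without pseudopregnant replicate 2, 4 or 5 or virgin replicate 1, 2 or 4. They became 3 without pseudopregnant replicate 1 or virgin replicate 5. Tight junction and adhesion genes gave 17 of 25 positive, 4 higher and 1 lower (median 0.091, 0.015 with the length covariate). The 4 higher became 1 without pseudopregnant replicate 5 and 9 without virgin replicate 3, and the 1 lower became 4 without pseudopregnant replicate 1. The desmosomal Dsg2 (0.55, SE 0.19, 0.18 length-adjusted) and Dsp (0.58, SE 0.22, 0.12 length-adjusted) were among the higher, and Cldn23 (-0.27, SE 0.12) was the lower. Drug and steroid metabolism gave 15 of 31 positive, 1 higher and 1 lower (median -0.0056, -0.050 with the length covariate, -0.12 without pseudopregnant replicate 3 to 0.12 without virgin replicate 3, 5 lower without pseudopregnant replicate 1), Cyp3a44, at 0.377 to 2.63 CPM (median 1.63) in virgin and 2.09 to 4.61 CPM (median 2.81) in pseudopregnant libraries, being higher and Gsta4 (-0.63, SE 0.25) lower.

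Lists of lineage markers held few members at an unadjusted p under 0.05, counted in the same way. With the length covariate each of these lists held 0 higher members. In bulk libraries fewer cells of a type and less RNA per cell cannot be told apart. Absorptive enterocyte markers gave 19 of 25 positive, 1 higher and 0 lower (median 0.17, 0.067 with the length covariate, 0.063 without pseudopregnant replicate 3 to 0.36 without virgin replicate 3, 5 higher without virgin replicate 3), proliferation genes 22 of 34 positive, 1 higher and 0 lower (median 0.041, -0.039 with the length covariate, -0.059 without virgin replicate 3 to 0.14 without pseudopregnant replicate 3, 4 higher without pseudopregnant replicate 1) and stem cell and Wnt target genes 17 of 22 positive, 2 higher and 1 lower (median 0.24, -0.065 with the length covariate, 0.065 without pseudopregnant replicate 5 to 0.35 without pseudopregnant replicate 1). Mki67, a marker of dividing cells, was at 37.4 to 73.1 CPM (median 58.2) in virgin and 35.1 to 152 CPM (median 96.9) in pseudopregnant libraries (0.65, SE 0.31, 0.15 with the covariate). The stem cell gene Lgr5 was at 2.08 to 7.36 CPM (median 5.38) in virgin and 3.16 to 13.7 CPM (median 6.58) in pseudopregnant libraries (0.46, SE 0.35, 0.051 length-adjusted, 0.18 to 0.59 with 1 library left out), while the stem cell factor Ascl2, a short gene, was at 1.73 to 10.5 CPM (median 5.95) in virgin and 2.54 to 5.09 CPM (median 3.33) in pseudopregnant libraries (-0.68, SE 0.33, -0.30 length-adjusted, -0.45 without virgin replicate 2). The villus-minus-crypt score, the enterocyte score of a library minus its proliferation score, differed by 0.151 (exact permutation p = 0.794) and by -0.063 without pseudopregnant replicate 3. The sign of that difference thus rested on a single library. Goblet cell genes gave 6 of 21 positive, 0 higher and 0 lower (median -0.20, -0.049 with the length covariate, -0.28 without pseudopregnant replicate 1 to -0.026 without virgin replicate 4, 6 lower without virgin replicate 3). Paneth cell genes gave 1 of 19 positive, 0 higher and 0 lower (median -0.42, 0.19 with the length covariate, -0.64 without virgin replicate 3 to -0.095 without virgin replicate 2, 5 lower without virgin replicate 3). Their alpha-defensins are near-identical copies that may share reads. Enteroendocrine genes gave 8 of 29 positive, 0 higher and 2 lower (median -0.13, -0.059 with the length covariate, -0.30 without pseudopregnant replicate 1 to 0.048 without virgin replicate 4, 6 lower without pseudopregnant replicate 1), the lower ones being Reg4, a secreted lectin, at 54.1 to 371 CPM (median 231) in virgin and 63.6 to 168 CPM (median 119.7) in pseudopregnant libraries (-0.98, SE 0.37), and Scg2 (-0.51, SE 0.21). Tuft cell genes gave 7 of 18 positive, 0 higher and 1 lower (median -0.15, -0.18 with the length covariate, -0.27 without virgin replicate 3 to 0.027 without virgin replicate 6), with Ltc4s, the synthase of the alarm lipid leukotriene C4, at 1.56 to 3.63 CPM (median 2.89) in virgin and 1.01 to 2.25 CPM (median 1.87) in pseudopregnant libraries (-0.65, SE 0.24).

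In the remaining lists, at most 2 members stood on either side at an unadjusted p under 0.05. With the length covariate 0 members of these lists were higher. Villus tip genes gave 8 of 14 positive, 1 higher and 0 lower (median 0.086, 0.078 with the length covariate, -0.18 without pseudopregnant replicate 3 to 0.26 without virgin replicate 3). Genes of the unfolded protein response gave 10 of 22 positive, 2 higher and 1 lower (median -0.017, 0.11 with the length covariate, 5 higher without pseudopregnant replicate 1), with the quality control adaptor Sel1l at 79.3 to 112 CPM (median 84.4) in virgin and 84.04 to 132 CPM (median 109) in pseudopregnant libraries (0.31, SE 0.13, 0.11 length-adjusted) and the chaperone Dnajb9 (-0.33, SE 0.14) on the lower side. Notch and secretory fate genes gave 6 of 14 positive, 2 higher and 0 lower (median -0.095, -0.045 with the length covariate, 3 lower without virgin replicate 3), the higher ones being the long receptor gene Notch2 (0.78, SE 0.30) and the ligand Dll4, at 7.78 to 12.3 CPM (median 9.89) in virgin and 10.4 to 23.00 CPM (median 11.9) in pseudopregnant libraries (0.54, SE 0.22). BMP and TGF beta genes gave 7 of 15 positive, 2 higher and 0 lower (median -0.0039, 0.0073 with the length covariate, -0.061 without virgin replicate 1 to 0.14 without virgin replicate 3), the receptors Bmpr2 (0.45, SE 0.17) and Tgfbr2 (0.36, SE 0.17) being higher. MHC class II genes, which enterocytes make after interferon gamma, gave 1 of 8 positive, 0 higher and 0 lower (median -0.23, -0.19 with the length covariate, -0.44 without virgin replicate 6 to 0.16 without virgin replicate 3). Ribosome biogenesis and Myc genes gave 13 of 30 positive, 0 higher and 0 lower (median -0.047, -0.041 with the length covariate, -0.13 without virgin replicate 3 to 0.024 without pseudopregnant replicate 3, 3 higher without pseudopregnant replicate 1, 5 lower without virgin replicate 3). Transcripts of the mitochondrial genome gave 10 of 13 positive with 1 higher and 0 lower (median 0.22), although they are short, at a median of 784 bases. Their median was near 0 with the length covariate. The nuclear retained RNA Malat1 stood at 258 to 1166 CPM (median 663) in virgin and 442 to 1673 CPM (median 1102) in pseudopregnant libraries (0.64, SE 0.40).

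The broad epithelial markers stood at summed levels of 17452 to 25626 CPM in virgin and 13907 to 24694 CPM in pseudopregnant libraries. Of 12 tested 2 were lower at an unadjusted p under 0.05, the gut transcription factor Cdx2 (-0.39, SE 0.17) and the keratin Krt18 (-0.42, SE 0.19), and the list median was -0.19 (-0.012 with the length covariate, lower from 0 to 6 without pseudopregnant replicate 1). Epcam stood at 2096 to 2988 CPM (median 2509.5) in virgin and 1639 to 3589 CPM (median 2115) in pseudopregnant libraries. Markers of other cell types were low beside these. Ptprc, the pan-leukocyte gene, reached at most 0.598 CPM. T cell markers summed to 1.26 to 4.83 CPM in virgin and 1.21 to 6.52 CPM in pseudopregnant libraries, with 19 of 20 under 1 CPM in all 12. B cell markers gave 1.45 to 5.37 and 1.74 to 3.81 CPM (9 of 11 under 1 CPM). Stromal markers gave 12.8 to 18.6 and 14.2 to 20.7 CPM (17 of 20 under 1 CPM), with Vim reaching 9.82 and Pdgfrb 6.95 CPM. Myeloid markers gave 15.8 to 44.5 and 23.8 to 35.9 CPM (9 of 14 under 1 CPM), led by the lysozyme Lyz2 at 7.76 to 34.5 and 14.3 to 28.2 CPM and the integrin Itgam at 3.19 to 7.11 and 3.85 to 6.55 CPM. Red blood cell genes summed to at most 1.45 CPM. The mitochondrial genome took 5.24% to 8.67% of counts in virgin and 5.91% to 9.22% in pseudopregnant libraries.

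Pseudopregnant libraries also differed among themselves. The SD of log2 CPM was larger in the pseudopregnant group for 8464 of 14675 genes (57.7%), with medians of 0.361 and 0.318. This order rested on single libraries, since the share was 48.8% without pseudopregnant replicate 1 and 71.2% without virgin replicate 3. The count of genes at an unadjusted p under 0.05 moved with the libraries too. Leaving out pseudopregnant replicate 1 gave 3390, replicate 6 gave 2286 and virgin replicate 3 gave 2585. Counts were lower on leaving out pseudopregnant replicates 2 (738), 4 (635) or 5 (540) or virgin replicates 1 (792) or 2 (704). With replicate 1 left out 1823 of the 3390 were higher (53.8%), against 78.5% of the 1375. Virgin replicates 2 and 3 each stood apart in more genes than any pseudopregnant library, and the other virgin libraries in fewer than pseudopregnant replicate 1. Of 12493 genes, virgin replicate 3 was the highest of its group by more than 1 log2 unit in 45 and the lowest in 296. Virgin replicate 2 was so in 37 and 200. Pseudopregnant replicate 1 was the highest of its group by as much in 30 genes and the lowest in 105. Among the 30 were the interferon-induced Isg15 (62.9 against at most 23.7 CPM), Usp18 (15.1 against 5.56 CPM) and Rtp4 (34.4 against 11.7 CPM). Pseudopregnant replicate 4 was highest by as much in 27 genes, among them the acute phase gene Lrg1 (19.3 against at most 0.572 CPM) and the tyrosine aminotransferase Tat (33.2 against 5.70 CPM).

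Set directly against pregnant libraries, pseudopregnant libraries had 0 of 14675 genes past the test (edgeR quasi-likelihood test, smallest adjusted p 0.920), and 345 (2.35%) at an unadjusted p under 0.05. Named genes stood as follows, as log2 pseudopregnant minus pregnant. Cyp1a1 was at 0.63, SE 0.34, Bco1 at -0.42, SE 0.34, Acot1 at -0.46, SE 0.32, Prlr at 0.038, SE 0.12 and Mt1 at -0.45, SE 0.41. Slc5a4a was at -0.87, SE 0.36 and Cish at -0.57, SE 0.19. The genes led by pseudopregnant replicate 4 were at 3.69, SE 1.05 for B3galt5, 3.22, SE 0.96 for Fut2 and 1.02, SE 0.38 for Alpk1. This contrast shares its pseudopregnant libraries with the contrast to virgin mice, so the values are set side by side and not counted as agreement.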

How the data were processed

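Epithelial cells sorted from the ileum were profiled in 12 libraries, with 6 more from pregnant mice. Per the labels' protocols, RNA came from the RNeasy Plus Micro kit and libraries from NEBNext Ultra II Directional reagents after poly(A) enrichment. The values are read counts per Ensembl gene, deposited by the authors without normalization. Per the submitters' processing notes, GRCm38, featureCounts of Subread 2.0.0, HISAT2 2.0.4, DESeq2 1.24.0 and FastQC 0.11.5 were used. Strand setting and annotation release: not given in the sources used here. GENCODE M21 matched 47310 of 47729 genes. The remaining 419 took up to 0.029% of the counts. No library was a duplicate, since replicates of a group were further apart than sampling noise allows (chi-square 35.5 to 455.8 per degree of freedom).

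Groups came from the titles. After edgeR's filterByExpr (14675 genes) and TMM scaling, a quasi-likelihood model (legacy = FALSE) with 1 mean per group was fitted to all 18 libraries with edgeR 4.0.16 in R 4.3.3. The two-sided contrast had a threshold of 0.05 after Benjamini-Hochberg adjustment. List scores and length slopes used log2 CPM with a prior count of 2, the slopes over genes of at least 20 CPM and 200 bases. On simulated counts the test made 8 false calls. Members of the comparison, the 48 gene lists and the tests were chosen with earlier results of these data known. Lists are described by counts and medians, without a test.

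Genes are named by a rule that takes the 12 of smallest p in each direction, with a mean of at least 5 CPM, at least 5 of 6 pseudopregnant libraries on 1 side of the virgin median and no predicted gene. It adds genes of at least 1 CPM whose groups do not overlap, the 4 of smallest p in each list with at least 3 members at an unadjusted p under 0.05, and genes fixed by name, 106 in all, of which 1 is not reported here. Other genes are named as members of their lists, after their values were seen. Alternatives were 2 other scalings, 2 other filters, DESeq2 1.42.0, limma-voom (limma 3.58.1), the legacy dispersion, the 12 libraries alone, covariates, the replicate number as a block, mitochondrial genes left out and each library left out.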

Additional observations from a re-analysis of the deposited data

Results flagged for a closer look

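In 28 of 216 checks, each of 1 group of 6 and 1 gene or library measure, the highest or lowest library stood far from the other 5 (by Dixon's gap). Chance puts about 1 in 20 groups there if values are normal and independent, but these are CPM of genes named partly by their p. Over 9986 genes of at least 5 CPM, on log2 values, virgin replicates 3 and 2 stood as far off in 6.22% and 2.93%. Pseudopregnant replicate 4 did so in 0.391%, and no library other than virgin 3 and 2 passed 1.41%. Of the 28, 19 were in the virgin group and 7 in pseudopregnant replicate 4. In that library B3galt5 at 77.2 CPM, A2ml1 at 2.52 CPM, Slc6a14 at 5.56 CPM, Fut2 at 61.3 CPM, Chst4 at 55.8 CPM, Chac1 at 9.18 CPM and Socs3 at 136 CPM were the highest values of the group. Chac1 degrades glutathione in the stress response, and without replicate 4 its fold change of 1.36 was 0.29. Pseudopregnant replicate 6 was high for the chaperone Chordc1, at 50.7 CPM, and replicate 1 for Fabp6, at 10740.1 CPM.

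In virgin replicate 2, Klf2 at 40.4 CPM, Phlda1 at 72.1 CPM, Med7 at 23.3 CPM, Areg at 47.8 CPM, Ier2 at 602 CPM and Fabp6 at 14268 CPM stood high, most of them early response genes. In virgin replicate 4, Acot1 at 11.6 CPM and Acot2 at 12.8 CPM stood high and Mbip low at 6.80 CPM. This library also held the highest mitochondrial share of the virgin group, at 8.67% of counts. In virgin replicate 3, Clock at 52.96 CPM and Sel1l at 112 CPM stood high, and its villus-minus-crypt score was 1.199, far above the other virgin libraries. In that library the Paneth cell lysozyme Lyz1 stood low at 929 CPM and Slc5a4a high at 129 CPM, also far from the other 5. Virgin replicate 1 was far off for Eef2k, high at 33.9 CPM, and for Mt2, low at 16.6 CPM. Virgin replicate 5 was low for Sgk1 at 160.3 CPM and virgin replicate 6 high for Fut2 at 1.87 CPM.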

How the results depend on the processing

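In every alternative run, 0 genes passed adjustment at 0.05, with a smallest adjusted p of 0.0760 in DESeq2 and 0.108 in edgeR without pseudopregnant replicate 1. The 1375 genes at an unadjusted p under 0.05 became 312 with the length slope as a covariate, 622 with the length slope and villus-minus-crypt score, 377 with the replicate block and length slope, and 540 to 3390 with each library left out. The share of higher genes was 78.5%, against 66.2% with upper quartile scaling, 66.0% in limma-voom, 53.8% without pseudopregnant replicate 1, 63.8% without virgin replicate 3, 51.9% with the length slope, 54.5% with both covariates and 51.5% with block and slope. With the replicate number as a block the count was 1988 (62.0% higher). The labels do not say that numbers pair samples. Correlations of same-numbered virgin and pseudopregnant libraries ran from -0.62 to 0.56, and only numbers 3 and 5 matched best. Differences that act on a whole library can set these values, so they cannot exclude a batch shared by number. Replicate 3 had the highest villus-minus-crypt score of each group (virgin 1.199, pregnant 1.401, pseudopregnant 0.999). Without virgin replicates 2 and 3 together, an alternative chosen after seeing the data, the count was 1294 (980 higher, 314 lower). The length slope difference of 0.148 ran from 0.11 to 0.197 and the villus-minus-crypt difference of 0.151 from -0.063 to 0.44 with each library left out. Of the 106 named genes 18 changed sign in at least 1 alternative, 62 values in all, of which 15 were for Pgr. The cause was not tested. With the length slope they were Atp7a -0.016, Slc6a6 -0.017, Rnf43 -3.6e-04, Olfm4 -0.047, Fabp6 0.093, S100g 0.39, Dclk1 -0.13, Epcam 0.050, Slc10a2 0.082 and Pgr -0.34. With the length slope and villus-minus-crypt score they were Atp7a -0.0092, Slc6a6 -0.0097, Fabp6 0.040, Muc2 -0.039, S100g 0.45, Dclk1 -0.026, Epcam 0.019, Slc10a2 0.038, Lyz1 0.22 and Pgr -0.32. With the block and length slope they were Tjp1 -0.0070, Slc6a6 -0.084, Socs2 0.067, Fabp6 0.20, S100g 0.45, Dclk1 -4.7e-04, Epcam 0.094, Ptprc -0.12, Slc10a2 0.25, Cish 0.0084, Lyz1 0.13 and Pgr -0.042. Without virgin replicates 2 and 3 they were S100g 0.010, Dclk1 -0.067, Slc10a2 0.10, Esr1 0.25 and Pgr -0.18. With the villus-minus-crypt score Lyz1 was at 0.14, in limma-voom Lyz1 0.051 and Pgr -0.082, and with the block alone Lyz1 0.020 and Pgr -0.034. Pgr was at -0.029 with upper quartile scaling, -0.026 in DESeq2, -0.010 with the legacy dispersion and -0.0058 without mitochondrial genes. With each library left out the values ran from -0.48 to 0.43 for Pgr, -0.48 to 0.17 for S100g, -0.48 to 0.16 for Esr1, -0.38 to 0.096 for Slc5a4b, -0.27 to 0.041 for Lyz1 and -0.15 to 0.0025 for Cish. Depth limits genes near 1 CPM such as Pgr and Esr1, which hold few counts.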

Other observations

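Some gene families had single libraries far from the rest in both groups. The defensin pseudogene Defa-ps4 stood at 249.7 CPM in virgin replicate 6 against at most 3.36 CPM in the other virgin libraries, and at 130.2 CPM in pseudopregnant replicate 3 against at most 3.33 CPM. Defa-ps16 stood at 68.4 CPM in pseudopregnant replicate 1 against at most 2.47 CPM, and at 20.9 CPM in virgin replicate 2 against at most 1.80 CPM. Such genes belong to a family of near-identical copies, so reads may be split between them.

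The gasdermins Gsdmc3 and Gsdmc4, members of a family of pore-forming proteins, and the phospholipase Pla2g4c were high in 1 library of each group. In virgin replicate 6 they stood at 137, 456 and 352 CPM, against at most 57.0, 203 and 68.8 CPM in the other virgin libraries. In pseudopregnant replicate 5 they stood at 113, 337 and 107 CPM, against at most 50.5, 157 and 25.4 CPM. The gut hormone genes Pyy and Sct were highest in pseudopregnant replicate 1 of its group, at 55.8 CPM against at most 21.9 CPM and at 133 CPM against at most 54.9 CPM. The hepatic protease inhibitor genes Serpina1c and Serpina1e were highest in virgin replicate 4, at 8.67 against at most 2.88 CPM and at 5.83 against at most 1.84 CPM.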
